A study of Homo sapiens with 48 samples.

Results

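Steady-state RNA of DLD-1 cells, which derive from a human colorectal tumour, was compared between cells depleted of CNOT4 for 24 h and the same line left without auxin. The comparison rests on 4 of the 48 libraries of the series: CNOT4-AID cells in 1 mM auxin for 24 h (n = 2) and untreated CNOT4-AID cells at 24 h (n = 2), chosen by their labels. All lines express TIR1, the plant receptor that on binding auxin marks any protein with an AID (auxin-inducible degron) tag for proteasomal breakdown. Parental TIR1 cells, which have no tagged protein, were given the same 1 mM auxin for 24 h or left untreated (n = 2 each) and served to show what auxin itself does. CNOT4-AID cells at 8 h with 1 mM auxin or untreated (n = 2 each) and CNOT1-AID cells at 24 h with 1 mM auxin or untreated (n = 2 each) were used beside them. The labels do not say whether a line is 1 clone or whether the libraries of a group came from separate cultures, so the p-values measure only the spread between these libraries. No protein was measured, and CNOT4 mRNA does not check the depletion of a protein that is removed after translation.

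CCR4-NOT is the main deadenylase complex of the cytoplasm, and starts mRNA decay by trimming poly(A) tails. CNOT1 is its scaffold, CNOT7, CNOT8, CNOT6 and CNOT6L are its nucleases, and CNOT4 is a RING-type ubiquitin ligase that binds the complex loosely in human cells. Its yeast relative, Not4, ubiquitinates ribosomal proteins and works in the surveillance of stalled translation. The values here are TPM (transcript abundance per unit of length, normalised to the same sum in every library), so the depth behind each value is unknown and no counting interval can be given.

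The genes that changed differed in the base composition of their coding sequences. Stretches of 4 of the genes named below are shown, chosen for their contrast after the values were seen. The 30 codons at the centre of each coding sequence are printed below (GENCODE 29, GRCh38), with G and C at the third position of each codon in capitals. METTL5 and PLRG1 were higher with auxin, and DHCR7 and S100A16 were lower.
METTL5: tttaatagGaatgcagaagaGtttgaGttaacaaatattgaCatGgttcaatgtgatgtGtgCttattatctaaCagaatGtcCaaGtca
PLRG1: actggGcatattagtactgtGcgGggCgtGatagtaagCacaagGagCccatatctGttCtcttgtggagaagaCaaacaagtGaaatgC
DHCR7: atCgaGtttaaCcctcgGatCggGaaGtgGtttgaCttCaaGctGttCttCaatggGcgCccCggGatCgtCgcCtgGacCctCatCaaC
S100A16: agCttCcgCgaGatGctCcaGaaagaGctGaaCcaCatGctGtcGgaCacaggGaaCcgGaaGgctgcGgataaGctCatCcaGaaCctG
Of the 30 codons shown, 11 in METTL5 and 13 in PLRG1 end in G or C, against 26 in DHCR7 and 26 in S100A16. Over the whole coding sequence this share (GC3) is 34.0% in METTL5, 34.0% in PLRG1, 82.7% in DHCR7 and 81.5% in S100A16. Other named genes differ less. The same stretch has 13 such codons in NACA, which was higher, and 10 in TM4SF1 and 17 in LRP10, which were lower (GC3 51.5% and 63.7%).

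The libraries of CNOT4-AID cells at 24 h differed between the groups in more than single genes. Small nuclear RNAs held 18.5% and 17.5% of TPM with auxin and 24.1% and 20% without, against 16.4% to 17.5% in the 4 parental libraries at 24 h, and protein-coding genes held 45.8% and 45.8% with auxin and 41.9% and 43.3% without. Of 16 colon epithelium markers 11 were at 1 TPM or more, with a summed level of 5170 to 5290 TPM in auxin libraries and 4310 to 4520 TPM in untreated libraries. No blood or endothelium marker averaged 1 TPM, ACTA2 was the only 1 of 8 fibroblast markers that did, and MAP2 was the only 1 of 4 neural markers. The fit used TMM scaling, a trimmed mean of log ratios between libraries, which sets the median gene near 0. It divided TPM at 24 h by 0.9055 and 0.9085 in untreated CNOT4-AID libraries and 0.9957 and 0.9838 in auxin ones. Parental libraries at 24 h were divided by 1.046 to 1.086. TPM are printed as deposited, so the order of libraries can change after this scaling. Scaling to the ERCC spike-in RNA moved the median log2 change of all genes to 0.19 and no scaling moved it to 0.11, so every direction below is relative to the median gene.

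Depletion of CNOT4 for 24 h was followed by many small changes. Of 14921 genes tested, 312 were higher and 361 were lower with auxin (2.09% and 2.42%, together 4.51%, limma with Benjamini-Hochberg adjusted p under 0.05). The median change of those called was 1.31-fold among the higher and 1.23-fold among the lower, and 40 of the higher and 23 of the lower genes reached 1.5-fold. In TPM as deposited, both auxin libraries lay beyond both untreated libraries in 661 of the 673 called genes, and 57.7% of all genes tested were separated in this way. The called genes were chosen by this same gap, so their separation follows from the choice. The share of all genes includes the difference in scale between the groups. With ERCC scaling 458 genes were called higher and 1 lower, so that the call of lower genes holds only relative to the median gene. The counts depended on 3 of the 4 libraries: without replicate 1 of the untreated group 10 were higher and 11 lower, without replicate 1 of the auxin group 25 and 22, and without replicate 2 of the auxin group 25 and 21. Without replicate 2 of the untreated group 295 were higher and 344 lower.

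In parental cells 24 h of auxin gave no called gene by limma, with 755 genes under an unadjusted p of 0.05 against 3350 in CNOT4-AID cells. Other settings called up to 7 genes higher and 7 lower in parental cells. The difference between the responses of the lines was called for 10 of 14921 genes (0.067%, limma), 6 higher and 4 lower in CNOT4-AID cells (0.0402% and 0.0268%). Of these, 5 higher and 4 lower genes met the rule for naming genes, and the remaining 1 is the microRNA gene MIR320B2.

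METTL5 encodes the methyltransferase that places an N6-methyladenosine on 18S ribosomal RNA, and lies on chromosome 2 (169810081 to 169824931, GRCh38). Its level was 64.3 and 65.0 TPM with auxin and 38.9 and 42.4 TPM without in CNOT4-AID cells, against 50.9 and 49.95 TPM with auxin and 55.7 and 51.6 TPM without in parental cells. It rose 1.46-fold in CNOT4-AID cells (log2 0.54, SE 0.067, limma adjusted p 0.0018), and the response differed from that of parental cells by 0.62 (adjusted p 0.026). The auxin libraries stood above and the untreated libraries below all 4 parental libraries.

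UTP23, a factor of 18S ribosomal RNA processing on chromosome 8 (116766503 to 116849463), had 9.77 and 9.02 TPM with auxin and 5.36 and 5.99 TPM without in CNOT4-AID cells. Parental cells had 7.29 and 7.23 TPM with auxin and 9.22 and 7.99 TPM without. The gene rose 1.48-fold in CNOT4-AID cells (log2 0.57, SE 0.085, limma adjusted p 0.003), and the responses differed by 0.78 (adjusted p 0.026). In TPM as deposited the untreated CNOT4-AID libraries were below every parental library, while the upper parental library overlapped the auxin group. After scaling the untreated libraries were still below and the auxin libraries above all parental ones.

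SMIM19 encodes a small membrane protein and lies on chromosome 8 (42541155 to 42555193). It had 11.1 and 12.5 TPM with auxin and 6.20 and 6.55 TPM without in CNOT4-AID cells, against 8.46 and 8.12 TPM with auxin and 10.96 and 8.52 TPM without in parental cells. The rise was 1.65-fold in CNOT4-AID cells (log2 0.72, SE 0.11, limma adjusted p 0.0041), and the responses differed by 0.92 (adjusted p 0.046). Auxin libraries were above and untreated libraries below all parental ones.

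NACA encodes the alpha subunit of the nascent polypeptide-associated complex, which binds new protein chains at the ribosome (chromosome 12, 56712428 to 56731628). Its level was 466 and 474 TPM with auxin and 286 and 326 TPM without in CNOT4-AID cells, against 383 and 380 TPM with auxin and 444 and 379 TPM without in parental cells. It rose 1.41-fold (log2 0.50, SE 0.069, limma adjusted p 0.0024), and the responses differed by 0.59 (adjusted p 0.044). NACA has processed pseudogenes that can take or give reads, so its level is uncertain.

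PLRG1, a component of the PRP19 complex of the spliceosome (chromosome 4, 154535006 to 154550435), had 91.97 and 85.3 TPM with auxin and 55.5 and 61.2 TPM without in CNOT4-AID cells. Parental cells had 72.6 and 77.0 TPM with auxin and 73.5 and 71.8 TPM without. It rose 1.39-fold at 24 h (log2 0.47, SE 0.052, limma adjusted p 0.00072), and the responses of the lines differed by 0.42 (adjusted p 0.046). PLRG1 had also passed the test at 8 h in CNOT4-AID cells (log2 0.39, limma adjusted p 0.0034), with 49.4 and 65.4 TPM with auxin and 49.8 and 46.3 TPM without. METTL5, UTP23, SMIM19 and NACA gave 0.14 to 0.28 on the log2 scale at 8 h and did not pass.

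The 4 genes lower in CNOT4-AID cells code for membrane and calcium-binding proteins and a sterol enzyme. TM4SF1, a membrane protein of the L6 family (chromosome 3, 149369022 to 149377865), had 38.4 and 38.2 TPM with auxin and 46.0 and 50.5 TPM without, against 44.8 and 43.2 TPM with auxin and 43.3 and 41.9 TPM without in parental cells. Its log2 change in CNOT4-AID cells was -0.45 (SE 0.061, limma adjusted p 0.0021), and the responses differed by -0.51 (adjusted p 0.046). Auxin libraries lay below and untreated libraries above all parental libraries.

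S100A16, an EF-hand calcium-binding protein (chromosome 1, 153606886 to 153613145), had 191 and 187 TPM with auxin and 241 and 225 TPM without in CNOT4-AID cells, against 236 and 242 TPM with auxin and 228 and 233 TPM without in parental cells. The log2 change was -0.43 (SE 0.056, limma adjusted p 0.0021) and the difference of the responses -0.48 (adjusted p 0.044). The auxin libraries were below the other 6. The untreated CNOT4-AID libraries overlapped the parental range in TPM as deposited and lay above it after scaling.

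DHCR7, the reductase of the last step of cholesterol synthesis (chromosome 11, 71428193 to 71452868), had 55.2 and 52.1 TPM with auxin and 68.1 and 63.2 TPM without in CNOT4-AID cells, against 66.5 and 70.8 TPM with auxin and 63.4 and 65.1 TPM without in parental cells. It fell with a log2 change of -0.41 (SE 0.053, limma adjusted p 0.0021), and the responses differed by -0.52 (adjusted p 0.026). LRP10, a receptor of the LDL receptor family (chromosome 14, 22871613 to 22881580), had 24.2 and 24.0 TPM with auxin and 28.9 and 26.8 TPM without in CNOT4-AID cells, against 30.8 and 32.7 TPM with auxin and 29.7 and 29.5 TPM without in parental cells. Its log2 change was -0.33 (SE 0.054, limma adjusted p 0.0057), and the responses differed by -0.43 (adjusted p 0.048). For both genes the auxin libraries of CNOT4-AID cells were the lowest of the 8. All 9 genes kept their sign under every scaling. With ERCC scaling the CNOT4-AID response of the 5 higher genes passed and that of the 4 lower ones did not (limma adjusted p 0.136 to 0.46). The difference from the parental response, by which they were named, passed for none of the 9 with ERCC scaling. With the groups of the comparison alone it passed for none of the 9 either. In most fits with 1 library left out, this difference no longer passed for these genes.

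**Figure D1:**
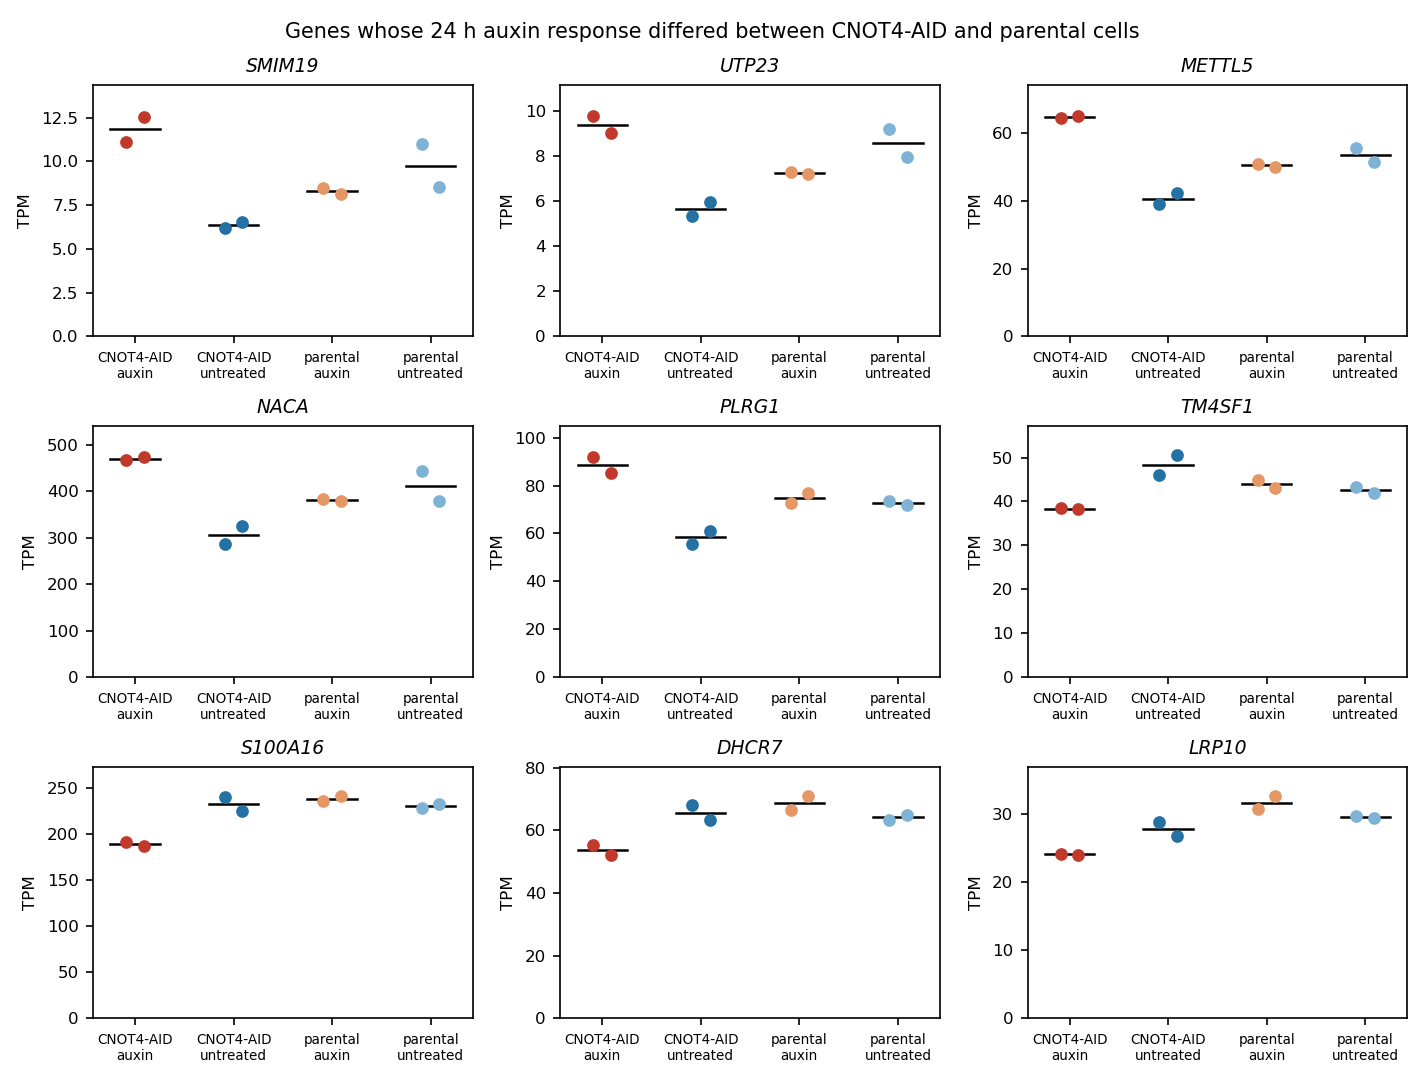
TPM of the 9 genes in each library at 24 h (points, 2 per group) with the group mean (line), for CNOT4-AID cells with auxin and untreated and parental cells with auxin and untreated. The CNOT4-AID libraries of METTL5 are at 64.3 and 65.0 TPM with auxin and at 38.9 and 42.4 TPM without it, and the parental libraries lie between.

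MIR320B2 is a microRNA locus of 138 bases on chromosome 1 (224257004 to 224257141, GRCh38). It was at 5.47 and 5.35 TPM in the auxin libraries of CNOT4-AID cells at 24 h and listed at 0 in the other 22 steady-state libraries. It codes for the mature microRNA below (RefSeq, GRCh38.p14), with its seed, bases 2 to 8, in capitals.
hsa-miR-320b: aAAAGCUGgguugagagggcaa
The rule for naming genes passes over microRNA symbols, so it was chosen after its values were seen. A library of total RNA fragments does not measure a mature microRNA of 22 bases, a value listed at 0 can be a failed estimate for so short a locus, and no fold is given.

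Outside the genes whose response differed between the lines, called genes were chosen after their values were seen. They come from the 12 with the greatest change in each direction among those with a mean of 5 TPM or more and groups that did not overlap, small RNA and clone names passed over, so some called genes of lower level changed more. TPR, a nuclear pore basket protein, had 16.7 and 17.1 TPM with auxin and 8.43 and 9.21 TPM without in CNOT4-AID cells, against 17.2 and 15.1 TPM with auxin and 22.1 and 14.7 TPM without in parental cells. It rose 1.72-fold (limma adjusted p 0.049), and the untreated CNOT4-AID libraries stood below all the others. NDC80, a kinetochore protein, had 16.5 and 15.6 TPM with auxin and 9.56 and 8.87 TPM without, against 12.1 and 12.1 TPM with auxin and 13.95 and 10.5 TPM without in parental cells, a 1.57-fold rise (limma adjusted p 0.0025). Its difference from the parental response did not pass (limma adjusted p 0.08).

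ZNF260 (1.74-fold), ZNF480 (1.72-fold), UACA (1.64-fold), FAM111B (1.64-fold), DEPDC1 (1.59-fold), MRPL1 (1.58-fold) and CDRT1 (1.58-fold) were higher as well. Of the lower genes the collagen receptor DDR1 had 35.9 and 32.9 TPM with auxin and 52.4 and 42.0 TPM without, a 1.48-fold fall (limma adjusted p 0.00425). ITGA5, the integrin subunit of the fibronectin receptor, had 6.28 and 5.38 TPM with auxin and 8.35 and 7.51 TPM without, a 1.45-fold fall (limma adjusted p 0.022). CORO1A (log2 -0.60), PDLIM2 (-0.60), PRADC1 (-0.59), CRYBG2 (-0.58), EEF1A2 (-0.53), CSRNP1 (-0.52) and SELENOW (-0.51) were lower as well. PSMC1P5, a pseudogene that may share reads with PSMC1, was 2.42-fold lower, with 23.5 and 33.9 TPM with auxin and 62.3 and 64.3 TPM without. No response among the genes of these last 2 paragraphs differed from the parental one by limma, with adjusted p of 0.067 or more.

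Without auxin the CNOT4-AID line already differed from the parental line at 24 h, with 1072 genes higher and 1064 lower (7.18% and 7.13%, limma). Which of the groups stood apart from the rest was counted for all called genes on the scaled log2 values. The called genes were chosen by the gap between these same auxin and untreated libraries. Shares above those of all genes are therefore expected from the choice itself, and the counts only describe where each group lay. Among the 312 higher genes, both auxin libraries lay above all 4 parental libraries at 24 h in 212 (67.9%, against 19.3% of all genes tested), and both untreated libraries lay below them in 175 (56.1%, against 22.1%). Among the 361 lower genes, both auxin libraries lay below the parental ones in 224 (62.0%, against 20.2%), and both untreated libraries lay above in 226 (62.6%, against 20.2%). The median distance from the parental mean was 0.21 for auxin and -0.17 for untreated cells among the higher genes, and -0.15 for auxin and 0.17 for untreated cells among the lower genes, on the log2 scale. The same count against the 4 CNOT4-AID libraries at 8 h gave 140 higher genes with the auxin libraries above (44.9%, against 15.1%) and 170 with the untreated libraries below (54.5%, against 15.5%). For the lower genes it gave 250 with the auxin libraries below (69.3%, against 16.0%) and 148 with the untreated libraries above (41.0%, against 14.3%).

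The called genes were sorted by the base composition of their mRNAs. Protein-coding genes called higher had a median GC3 of 41.2%, those called lower 72.5%, and all protein-coding genes tested 59.1%. The whole transcript showed it too, with a median GC content of 42.3%, 57.6% and 49.3%, and so did the 3′ untranslated region, with 34.9%, 52.4% and 42.5%. The median transcript length was 3063 bases among the higher, 2658 among the lower and 3098 among all genes. A GC3 value was at hand for 295 of 297 higher and 332 of 337 lower protein-coding genes.

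In quintiles of all protein-coding genes by GC3, from the lowest to the highest, 147, 91, 38, 13 and 6 genes were higher and 2, 25, 64, 106 and 135 were lower. The median log2 change at 24 h in CNOT4-AID cells was 0.16 in the lowest quintile and -0.10 in the highest. In parental cells it was -0.045 and 0.037, the other way round. In CNOT4-AID cells at 8 h it was 0.008 and -0.00076, with no slope over the quintiles. Spearman's rho between GC3 and the log2 change over 11699 genes was -0.50 in CNOT4-AID cells at 24 h, 0.28 in parental cells at 24 h and -0.019 in CNOT4-AID cells at 8 h. These are descriptions across genes, which are not independent replicates and share their libraries.

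**Figure D2:**
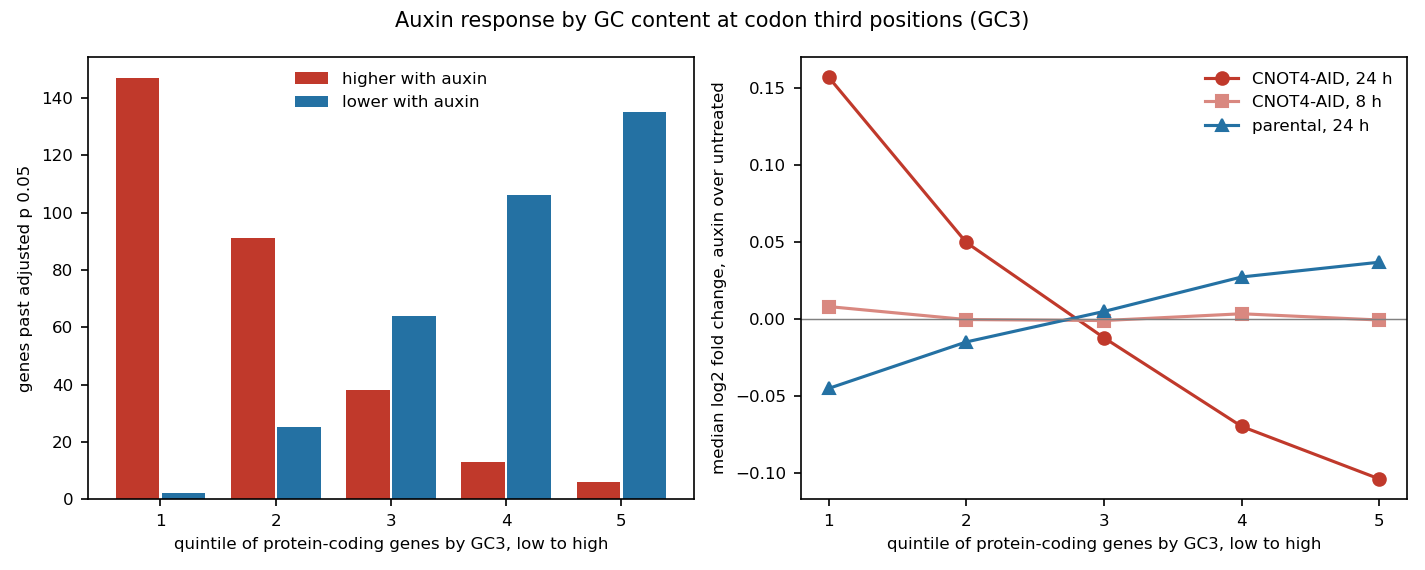
Left, genes past the threshold in CNOT4-AID cells at 24 h, higher (red) and lower (blue), in each quintile of protein-coding genes by GC3. Right, the median log2 fold change of auxin over untreated in the same quintiles for CNOT4-AID cells at 24 h and 8 h and parental cells at 24 h, with 0.16 in the lowest quintile and -0.10 in the highest for CNOT4-AID cells at 24 h.

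The tilt was also taken for each library, as the median scaled log2 level of the lowest quintile minus that of the highest, each gene centred on its mean over the 24 steady-state libraries. It was 0.094 and 0.022 in CNOT4-AID cells at 24 h of auxin and -0.29 and -0.13 in the untreated ones. Parental libraries at 24 h had 0.014 and 0.011 with auxin and 0.21 and -0.014 without. The untreated CNOT4-AID libraries were therefore the low ones at 24 h, and replicate 1 was the lower of the pair. Among the other libraries, 2 untreated ones at 8 h came near or below these values, replicate 1 of CNOT1-AID cells (-0.33, its partner at 0.036) and replicate 2 of CNOT4-AID cells (-0.12, its partner at 0.025). The part of library composition in these calls was not tested beyond a fit that took a GC trend out of every library. That fit, chosen after the data were seen, called 346 genes higher and 465 lower, and 509 of its 811 were among the 673, all with the same sign. The difference between the lines was called in this fit for 27 genes higher and 32 lower.

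**Figure D3:**
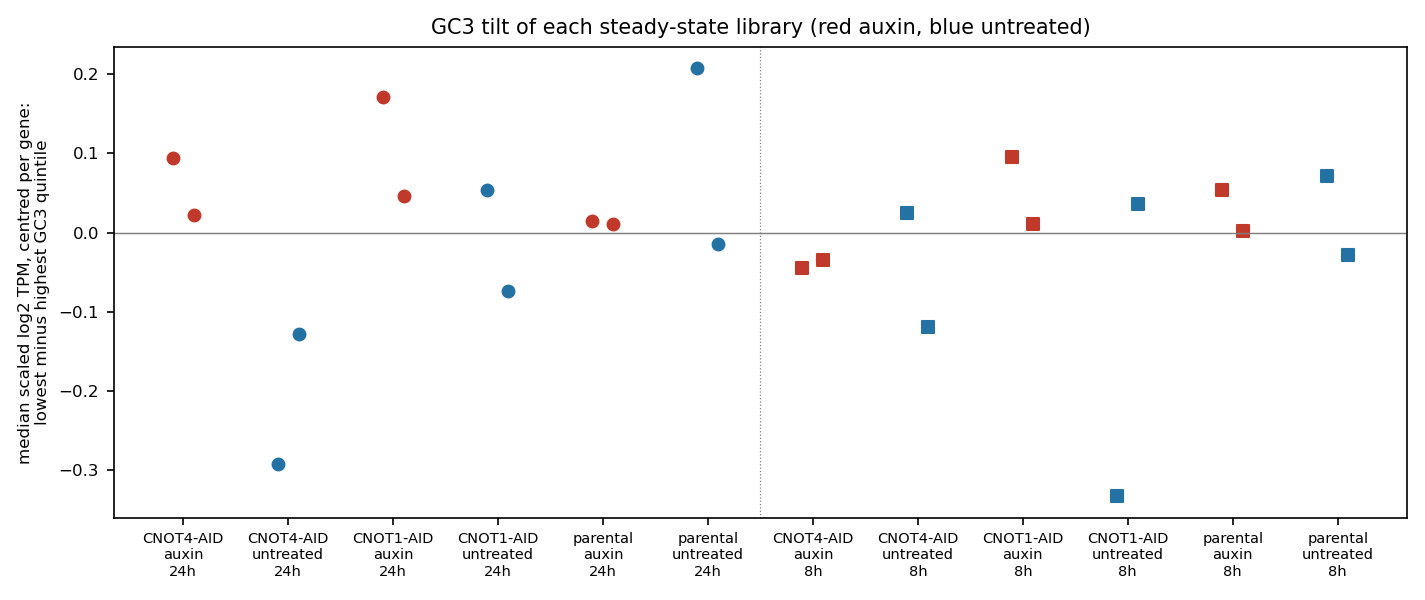
Median scaled log2 TPM of the lowest GC3 quintile minus that of the highest for each of the 24 steady-state libraries, 2 per group, with auxin in red and untreated in blue, 24 h on the left and 8 h on the right. Untreated CNOT4-AID libraries at 24 h are at -0.29 and -0.13, below the auxin libraries at 0.094 and 0.022.

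Gene lists were described by their counts and medians, and with ERCC scaling no member of any list was called lower and AXIN2, GAS5, PGAM1, RNPS1, RPL23A, SNHG12 and TPI1, called lower here, were above 0. Each count is to be read against the 2.09% higher and 2.42% lower of all genes tested. Of the 92 called members of the lists, 22 did not pass after removal of the GC trend, all with the same sign. They were BUB3, CISH, DUSP5, HSPA4, ID2, LSS, MT-ND4L, MVK, NUF2, PSMC2, SOCS1, UBE2D3 and 10 zinc finger genes. Genes of cell division were among those that rose. Of 55 G2/M genes 11 rose and 0 fell, with a median log2 change of 0.17 (0.39 with ERCC scaling, 0.09 after the GC trend was removed), against 2.09% of all genes and a median of 0.00. The spindle and kinetochore genes NDC80 (log2 0.65), HMMR (0.59), DLGAP5 (0.52) and KIF11 (0.45) led them. DLGAP5 had 27.0 and 24.98 TPM with auxin and 15.4 and 17.6 TPM without. Its parental levels were 20.38 and 20.01 TPM with auxin and 21.84 and 19.16 TPM without. KIF11, the kinesin that separates spindle poles, had 29.96 and 26.6 TPM with auxin and 18.3 and 19.5 TPM without. Its parental levels were 26.87 and 26.16 TPM with auxin and 30.18 and 25.58 TPM without. In TPM as deposited the untreated CNOT4-AID libraries lay below all parental ones for both genes, but after scaling only for KIF11. The auxin libraries as deposited lay above the parental ones for DLGAP5 but within their range for KIF11. In bulk RNA, more cells in a phase of the cycle and more RNA per cell cannot be told apart. The other members that passed, named after their values were seen, were NUF2, CDC25C, KIF23, CDC20, TPX2, AURKA and BUB3, with log2 changes of 0.17 to 0.42. In TPM as deposited both auxin libraries of NUF2 and 1 of KIF23 also lay within the parental range at 24 h, but after scaling they lay above it. In the remaining called members both auxin libraries lay above it. As deposited, the untreated CNOT4-AID libraries lay below it in every called member except CDC20. After scaling they did so only in KIF11, KIF23 and NUF2.

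CDC20, the activator of the anaphase-promoting complex, had 218 and 214 TPM with auxin and 162 and 158 TPM without in CNOT4-AID cells, and 167 and 176 TPM with auxin and 157 and 164 TPM without in parental cells. Its GC3 is 62.1%, above the median. CDC20 and TPX2 also passed at 8 h (log2 0.35 and 0.24, limma adjusted p 0.034 and 0.013). The other G2/M members called at 24 h did not pass at 8 h, when the median log2 change of the list was -0.00. The G2/M list had a median GC3 of 44.0%, and 24 of its 55 members were in the lowest GC3 quintile. In that quintile 7 of the 24 were higher, with a median log2 change of 0.30, against 6.28% and 0.16 for all coding genes of the quintile. For none of the 11 did the difference from the parental response pass by limma. Of 45 G1/S genes 1 rose, the clamp loader subunit RFC4 (log2 0.39), and 0 fell, with a median of 0.06.

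Among the lists of protein-coding genes, cholesterol synthesis had the lowest median. Of its 25 genes 0 rose and 5 fell, with a median log2 change of -0.18 relative to the median gene, and with ERCC scaling the median was 0.04 and no member passed. DHCR7 is given above. EBP, the sterol isomerase, had 66.8 and 69.7 TPM with auxin and 85.2 and 78.4 TPM without (log2 -0.38, limma adjusted p 0.018). MVK (log2 -0.28) and LSS (log2 -0.26) fell as well. After removal of the GC trend 7 were lower, with a median of -0.19. Of the 9 members in the lowest GC3 quintile 0 were lower, and the 5 that fell were among the others.

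Of 27 genes of the integrated stress and unfolded protein response 4 rose and 0 fell, with a median of 0.09 (0.30 with ERCC scaling). ASNS, asparagine synthetase, had 101.9 and 101.9 TPM with auxin and 74.0 and 76.1 TPM without in CNOT4-AID cells, against 94.1 and 100.4 TPM with auxin and 90.7 and 89.9 TPM without in parental cells (log2 0.31, limma adjusted p 0.0072). CEBPG, a partner of ATF4, had 14.9 and 14.9 TPM with auxin and 10.6 and 10.2 TPM without in CNOT4-AID cells, against 14.2 and 14.2 TPM with auxin and 13.3 and 12.9 TPM without in parental cells. DDIT3 (log2 0.31) and SLC7A11 (log2 0.59) passed too, and in all 4 the untreated CNOT4-AID libraries were the lowest of the 8 in TPM as deposited. After scaling this held for CEBPG and SLC7A11 but not for ASNS and DDIT3.

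Of 78 mitochondrial ribosomal protein genes 5 rose (6.41%) and 1 fell (1.28%), with a median of 0.04. MRPL1 had 21.4 and 19.6 TPM with auxin and 12.2 and 11.2 TPM without (log2 0.66, limma adjusted p 0.006), and MRPL32 had 30.1 and 26.3 TPM with auxin and 16.4 and 19.8 TPM without (log2 0.51, limma adjusted p 0.0067). MRPS31 (log2 0.49), MRPS9 (0.34) and MRPS11 (0.25) rose too, and MRPL43 fell (-0.27). The proteasome list of 37 had 2 higher, PSMD14 (log2 0.31) and PSMC2 (log2 0.22), and 0 lower. After removal of the GC trend PSMC2 was at 0.07 and did not pass (limma adjusted p 0.63). Of 128 cytosolic ribosomal protein loci, pseudogenes included, 1 rose, the pseudogene RPL13P5 (0.781%), and 4 fell (3.12%, near the 2.42% of all genes). RPSA (log2 -0.32), RPS29 (-0.27), RPLP0 (-0.26) and RPL23A (-0.19) were those, all with multicopy pseudogenes, and with ERCC scaling 3 loci rose and none fell.

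Of 42 immediate early genes 0 rose and 6 fell (14.3%, against 2.42% of all genes), with a median of -0.09 (0.10 with ERCC scaling, and then 1 higher and 0 lower). IER3 had 50.4 and 50.4 TPM with auxin and 63.0 and 60.5 TPM without (log2 -0.41, limma adjusted p 0.0029), and ID1 had 40.7 and 37.6 TPM with auxin and 49.0 and 45.5 TPM without (log2 -0.39, limma adjusted p 0.023). CSRNP1 (-0.52), CYR61 (-0.28), ID2 (-0.24) and DUSP5 (-0.23) were the others. CYR61 was at -0.33 in parental cells, which did not pass, and the difference between the lines did not pass (limma adjusted p 0.835). Of 28 genes of hypoxia and glycolysis 0 rose and 5 fell (17.9%), none with ERCC scaling. They were the glucose transporters SLC2A3 (log2 -0.42) and SLC2A1 (-0.25) and the glycolytic enzymes PGK1 (-0.22), TPI1 (-0.20) and PGAM1 (-0.20). SLC2A3 was also -0.32 in parental cells, which did not pass.

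**Figure D4:**
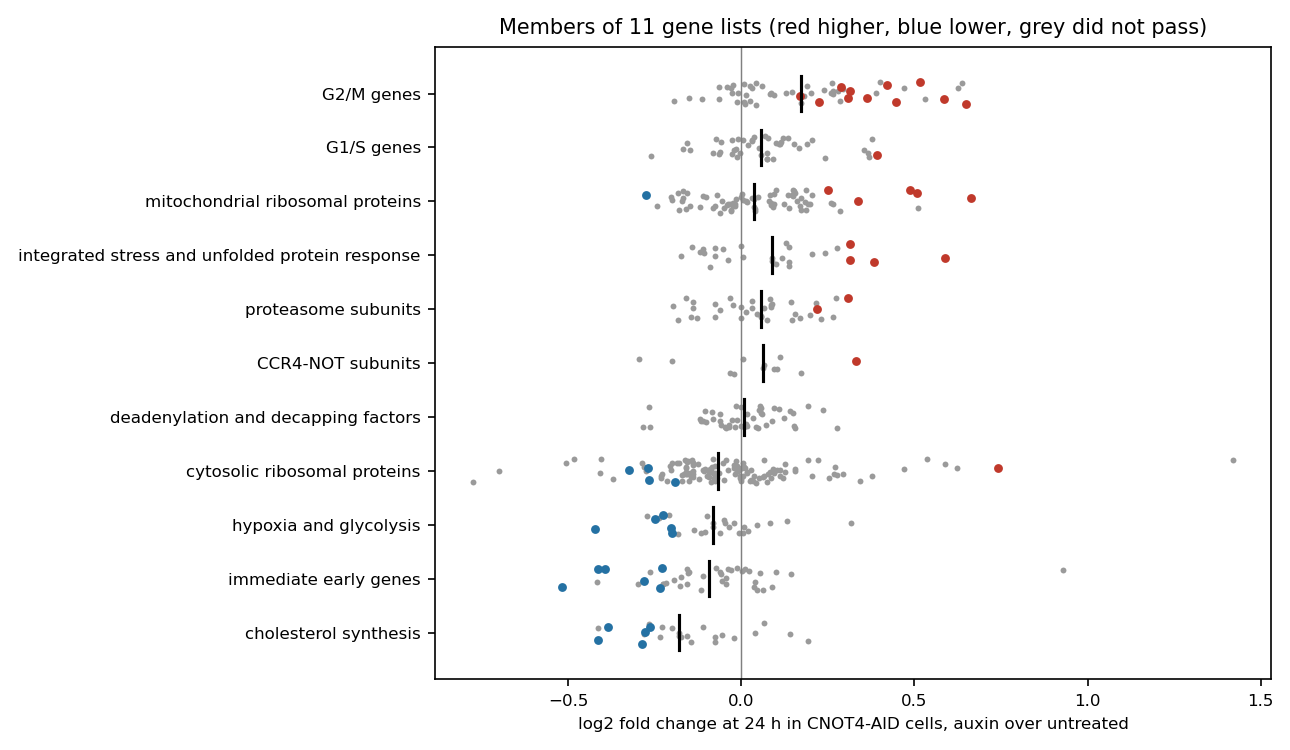
Log2 fold change at 24 h in CNOT4-AID cells, auxin over untreated, of every tested member of 11 gene lists (points), higher in red, lower in blue and not past the threshold in grey, with the list median as a line. Of the lists plotted, G2/M genes have the highest median, 0.17, and cholesterol synthesis the lowest, -0.18.

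Of 12 subunits of CCR4-NOT 1 rose, CNOT10, with 34.9 and 34.4 TPM with auxin and 24.3 and 26.1 TPM without in CNOT4-AID cells, against 29.2 and 32.7 TPM with auxin and 32.3 and 29.3 TPM without in parental cells (log2 0.33, SE 0.059, limma adjusted p 0.0085). CNOT10 binds the N-terminal part of CNOT1 together with CNOT11. CNOT4 mRNA was at 12.4 and 12.6 TPM with auxin and 10.2 and 9.96 TPM without, against 8.90 and 9.76 TPM with auxin and 9.87 and 9.17 TPM without in parental cells (log2 0.17, SE 0.084, limma adjusted p 0.24). The other subunits did not pass. CNOT7 had a log2 change of -0.20 and the complex partner TNKS1BP1 of -0.29. After removal of the GC trend CNOT7 was at -0.40 and passed (limma adjusted p 0.011). CNOT1, CNOT2, CNOT3, CNOT6, CNOT6L, CNOT8, CNOT9 and CNOT11 lay between -0.03 and 0.11, and with ERCC scaling CNOT1, CNOT7 and CNOT8 were above 0. By contrast, loss of CNOT1 for 24 h called 7 of the 12 higher and 3 lower, with a log2 change of 2.03 for CNOT4 mRNA.

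Of 10 partners and reported substrates of the CNOT4 ligase 1 rose, UBE2D3, one of the ubiquitin-conjugating enzymes that work with it, at 202 and 203 TPM with auxin and 154 and 163 TPM without (log2 0.23, limma adjusted p 0.04). It was at 0.16 after removal of the GC trend and did not pass (limma adjusted p 0.143). Of 47 deadenylation and decapping factors 0 rose and 0 fell, with a median log2 change of 0.01, while 1 passed with ERCC scaling. Of 27 ribosome quality control genes 1 rose, N4BP2, which was at 3.46 and 3.22 TPM with auxin and 1.51 and 1.64 TPM without. Of 22 nonsense-mediated decay genes UPF2 rose (log2 0.51) and RNPS1 (-0.19) and the host transcript GAS5 (-0.18) fell. Of 22 interferon-stimulated genes none rose or fell by limma, in this fit or with ERCC scaling.

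Zinc finger genes rose in 21 of 379 cases and fell in none, with a median of 0.05 (0.02 after removal of the GC trend, with 15 higher and 1 lower). ZNF260 had 10.7 and 7.89 TPM with auxin and 4.43 and 4.87 TPM without, against 20.5 and 20.3 TPM with auxin and 26.8 and 20.3 TPM without in parental cells. The auxin libraries thus stood well below the parental ones. In the lowest GC3 quintile 12 of 165 zinc finger genes were higher, with a median log2 change of 0.15, against 6.28% and 0.16 for all coding genes there.

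Of 13 mitochondrially encoded mRNAs 1 rose, MT-ND4L, with 5222 and 5449 TPM with auxin and 3403 and 4018 TPM without (log2 0.40, limma adjusted p 0.046), and the median of the list was 0.44. At 8 h the median was 0.42. These mRNAs held 1.85% and 3.45% of TPM with auxin and 2.17% and 2.14% without at 8 h, so before scaling replicate 1 of the auxin group was below both untreated libraries and replicate 2 above them. Small nucleolar and Cajal body RNA loci had a median of -0.40 over 157 loci, 1 of which passed, SNORA74A, at 370 and 299 TPM with auxin and 596 and 483 TPM without. Of 24 host genes of small RNAs 4 fell (16.7%, against 2.42% of all genes) and 0 rose, SNHG4, SNHG15, SNHG12 and GAS5, with log2 changes of -0.23 to -0.18.

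The remaining lists had few members past the threshold. CYP1A1 and CYP1B1 rose among 9 aryl hydrocarbon receptor targets, and SQSTM1 and SLC7A11 among 16 NRF2 targets. CYP1A1 was at 0.99 and 0.87 TPM with auxin and 0.38 and 0.26 TPM without. Heat shock genes had 1 higher, HSPA4, and 2 lower, HSPA1B and HSP90AB1, of 18, and Wnt targets 1 higher, SOX9, and 1 lower, AXIN2, of 16. SOX9 had a log2 change of 0.166 in CNOT4-AID cells and 0.163 in parental cells (limma adjusted p of the difference 0.989). Among p53 targets CDKN1A fell (1 of 23), among NF-kB targets IER3 (1 of 15), and among JAK-STAT genes CISH and SOCS1 (2 of 18). Oxidative phosphorylation genes had 2 lower of 80, ATP5F1B and COX8A, and replication-dependent histones 0 of 67 in either direction. Small nuclear RNA loci had 1 higher, RNU1-73P, and 1 lower, RNVU1-6, of 82. RNU1-73P was at 3.61 and 1.81 TPM with auxin in CNOT4-AID cells and 1.94 and 4.22 TPM with auxin in parental cells. It was listed at 0 in the untreated libraries of both lines at 24 h, and its difference between the lines did not pass (limma adjusted p 0.99). LSS, MRPS11, MRPL43, ID2, DUSP5, PGAM1, RPL13P5, RNU1-73P, SLC7A11, N4BP2, CYP1A1, CYP1B1, CDKN1A, CISH and SOCS1 fall outside the naming rule and were named after their values were seen.

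At 8 h of auxin the CNOT4-AID cells had 36 genes higher and 7 lower (0.241% and 0.0469%, together 0.288%, limma), measured in 4 other libraries. Of the 312 genes higher at 24 h, 275 had a positive log2 change at 8 h (88.1%, against 7464 of all 14921 genes), 25 passed the test there (8.01%), and the median was 0.16. Of the 361 genes lower at 24 h, 308 had a negative change at 8 h (85.3%, against 49.4%), 3 passed and 1 passed in the other direction, with a median of -0.097. The median sizes at 24 h were 0.39 and -0.30. The change between 8 h and 24 h was called for 3 genes (0.0201%, limma), with 1381 under an unadjusted p of 0.05: MIR320B2, the glycosyltransferase gene B3GNT3 and the small RNA locus RF00019. B3GNT3 was at 14.4 and 14.1 TPM with auxin and 16.1 and 15.7 TPM without at 24 h, and at 12.8 and 16.2 TPM with auxin and 12.5 and 12.5 TPM without at 8 h. RF00019 was listed at 0 in all 4 CNOT4-AID libraries at 24 h, and at 8 h it had 1.63 and 2.28 TPM with auxin and was listed at 0 without.

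**Figure D5:**
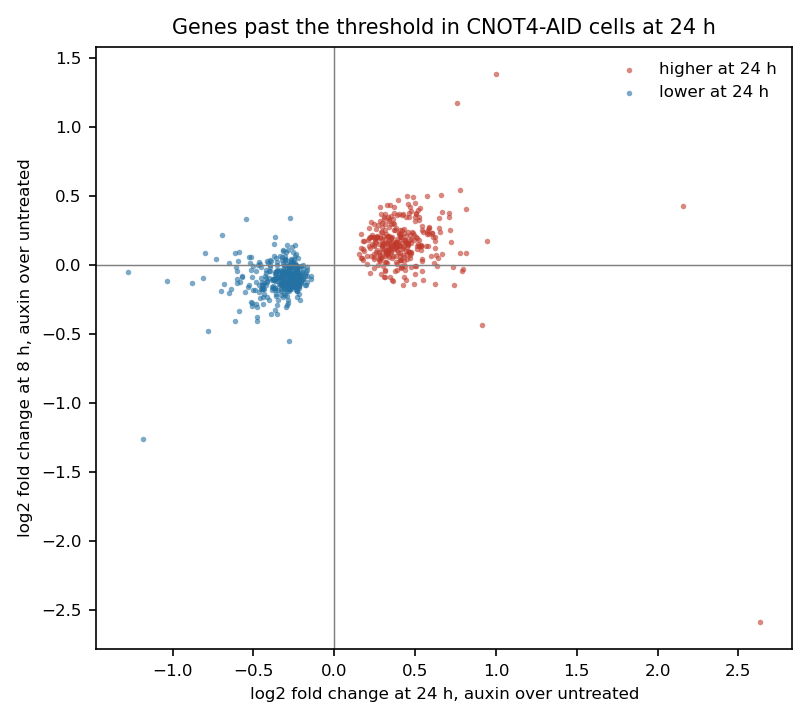
Log2 fold change at 24 h (x axis) and at 8 h (y axis), auxin over untreated in CNOT4-AID cells, for the called genes at 24 h except MIR320B2, which is listed at 0 at 8 h. Of the 312 higher genes 275 have a positive value at 8 h, and of the 361 lower genes 308 have a negative one.

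Loss of CNOT1 for 24 h called 5472 genes higher and 5198 lower (36.7% and 34.8%, together 71.5%, limma), and the responses of the lines differed for 9278 genes (62.2%). Of the 312 genes higher without CNOT4, 162 were higher (51.9%) and 92 lower (29.5%) without CNOT1. Of the 361 lower genes, 134 were higher (37.1%) and 174 lower (48.2%). UTP23 had 39.7 and 34.6 TPM in CNOT1-AID cells with auxin and 8.82 and 7.41 TPM without, and the responses of the lines differed by -1.30 (limma adjusted p 7.7e-08). SMIM19 had 3.81 and 4.01 TPM with auxin and 9.80 and 9.83 TPM without, and this difference was 2.17 (limma adjusted p 5.1e-09). The cholesterol genes had a median log2 change of -0.60 and the G2/M genes of -0.32 without CNOT1, so the first list shared its sign in the lines and the second did not.

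Decay was read from counts after triptolide, which stops transcription, in CNOT4-AID and parental cells given 1 mM auxin for 2 h beforehand and 1 µM triptolide for 0, 3, 6 and 12 h (n = 2 per time). A slope is in log2 units per hour, and a lower one is a faster loss. The median difference of CNOT4-AID minus parental slopes was -0.074 for genes higher at 24 h, -0.072 for genes lower and -0.076 for all genes with a slope. Of these, 4 of 310 (1.29%), 4 of 361 (1.11%) and 140 of 14102 (0.993%) passed by edgeR, so the called genes did not stand apart by this count. Over all 16806 genes fitted, 142 had a lower slope (0.845%) and 0 a higher one by edgeR. That count went to 0 without replicate 2 of CNOT4-AID cells at 12 h and to 9675 without replicate 1, so it rests on these libraries.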

How the data were processed

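RNA was measured by total RNA sequencing after removal of ribosomal RNA, per the labels' protocols. Among the tools listed in the submitters' processing notes are featureCounts, RSEM and STAR 2.5.1b, with the build hg38 and no roles, and the strand setting of the counting is not given in the sources used here. The deposited steady-state values are TPM to 2 decimals, checked to sum to the same total in every column, so their depth cannot be known. For triptolide the authors deposited raw counts, 18216427 to 26723618 per library. All 58721 identifiers were matched to GENCODE 29, which gave symbols, positions and transcript features.

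log2(TMM-scaled TPM + 0.5) was fitted with limma 3.58.1 (trend, robust) over all 24 steady-state libraries in 12 groups, with 12 residual degrees of freedom, for 14921 genes with at least 1 TPM in 2 libraries. Triptolide slopes were fitted with edgeR 4.0.16 (quasi-likelihood), with library sizes scaled to 56 ERCC sequences. Benjamini-Hochberg adjustment was used, with a threshold of 0.05. TPM in the text are as deposited, so their ratios differ from fitted folds, and the order of libraries can differ from the scaled one. Both scripts were tested on simulated data.

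Genes were named where the CNOT4-AID response and its difference from the parental response passed, with a mean of 5 TPM or more and groups that did not overlap (up to 12 in each direction), passing over small RNA and clone names. All CCR4-NOT subunits and up to 4 called members of each list were named, and others are marked. The comparison, lists and rule were chosen with earlier results of these data known. Alternatives were other scalings, pseudocounts and filters, a replicate block, the groups alone, leaving out each library, and, added after the data were seen, a fit without a GC trend. DESeq2 1.42.0 was an alternative for the triptolide counts. 1 called member of a list is not reported by name here.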

Additional observations from a re-analysis of the deposited data

Results flagged for a closer look

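The auxin response at 24 h differed between CNOT4-AID and parental cells, by limma's test of the difference itself, for 10 genes. The differences were 0.92 for SMIM19, 0.78 for UTP23, 0.62 for METTL5, 0.59 for NACA and 0.42 for PLRG1, and -0.43 for LRP10, -0.48 for S100A16, -0.51 for TM4SF1 and -0.52 for DHCR7 on the log2 scale. MIR320B2 had a fitted difference of 3.58, which depends on the pseudocount because all the other libraries are listed at 0. These calls depended on single libraries. Leaving out 1 library leaves a group of 1, and in most such fits the named genes no longer passed.

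The CNOT4-AID response differed between 24 h and 8 h for MIR320B2 (3.58), B3GNT3 (-0.62) and RF00019 (-2.65), and the first and the last of these again rest on values listed at 0. The responses of CNOT4-AID and CNOT1-AID cells at 24 h differed for 9278 genes. Groups of 2 libraries were too small for a check of single outlying libraries.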

How the results depend on the processing

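Counts are given as higher and lower. The CNOT4-AID response at 24 h (312 and 361) had 19 and 2 with no scaling, 1 lower with ERCC scaling, 116 and 124 with no filter on low values, 10 and 9 with the groups of the comparison alone, and 10 to 295 and 11 to 344 with 1 library left out. Its difference from parental cells (6 and 4) had 2 and 0 with no scaling, 1 and 0 with ERCC scaling, 7 lower with no filter, 10 and 10 with at least 5 TPM, 2 and 1 with the groups alone, 27 and 32 after GC correction, and 0 to 23 and 0 to 23 with 1 library left out. The parental response (0 and 0) had 1 and 1 at a pseudocount of 0.1, 2 higher at 1, 7 and 7 with no filter, 5 and 3 with the groups alone, 1 higher after GC correction, and 0 to 4 and 0 to 1 with 1 library left out. The 24 h minus 8 h difference (1 and 2) had 1 lower with no scaling, with ERCC scaling and at a pseudocount of 0.1, 4 and 10 with no filter, 4 and 1 with the groups alone, 3 lower after GC correction, and 0 to 2 and 0 to 6 with 1 library left out. CNOT4-AID minus CNOT1-AID gave 4148 to 4231 and 4364 to 4546 with 1 library left out. Slopes (0 and 142) gave 1 and 15 with TMM, 1 and 7 with median of ratios, 7 and 587 with no filter, 3 and 1742 with DESeq2, 2 and 64 without 0 h, and 0 to 15 and 0 to 9675 with 1 library left out. The causes were not tested.

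Same-numbered libraries of the auxin and untreated groups did not deviate together (r = -0.0203). With 2 libraries per group this r across genes cannot decide whether the numbers pair them. The replicate block gave 262 and 285 for the 24 h response, 4 and 1 for the difference from parental cells and 28 lower slopes.

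Of the 9 genes of the rule, those chosen by size after their values were seen and the CCR4-NOT subunits, which were run under every alternative, only subunits that had not passed changed sign. Of the 92 called list members, run with ERCC scaling and after GC correction alone, 7 turned positive with ERCC scaling, AXIN2 (0.043), GAS5 (0.039), RNPS1 (0.025), RPL23A (0.029), PGAM1 (0.020), TPI1 (0.016) and SNHG12 (0.0066). In the 24 h response CNOT1 had 0.0943 and CNOT8 0.101 with no scaling, CNOT1 0.1877, CNOT7 0.0177 and CNOT8 0.1922 with ERCC scaling, CNOT6L -0.0043 with median of ratios, and CNOT6 -0.0327 and CNOT6L -0.1836 after GC correction. In the difference from parental cells CNOT6L had 0.0739 and CNOT8 0.0462 with no scaling, and CNOT1 0.0934, CNOT6L 0.1807, CNOT7 0.0035 and CNOT8 0.1556 with ERCC scaling. With 1 library left out CNOT1 ranged from -0.0655 to 0.0037, CNOT6L from -0.0382 to 0.0478 and CNOT8 from -0.0636 to 0.021 in the response, and CNOT6L from -0.1364 to 0.0289 in the difference.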
